A study of Mus musculus with 180 samples.

Results

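The BCL2 family decides whether the mitochondrial outer membrane stays intact, and its 10 members measured here were *Bcl2*, *Bcl2l1*, *Mcl1*, *Bax*, *Bak1*, *Bcl2l11*, *Bbc3*, *Pmaip1*, *Bid* and *Bad*. They were chosen by gene symbol and make up 10 of the 45070 genes in the table of normalized exonic read counts. All 10 passed the filter on low values, which asked for 10 or more normalized values on average across the 180 samples and left 12714 genes for testing. Wild type mouse bone marrow-derived macrophages (BMDMs), cultured from the marrow of C57/BL6 males per the study's methods, were pre-treated for 1 h with 1 of 58 clinical kinase inhibitors (CKIs) or with the vehicle DMSO. Every sample, the DMSO samples included, was then stimulated for 2 h with 10 ng/ml lipopolysaccharide (LPS), the bacterial ligand of TLR4, so no unstimulated macrophages enter any comparison below. Each CKI had 3 samples and DMSO had 6, in 2 sets of 3. Each CKI was used at 1 concentration, set separately for each compound, so different CKIs are given side by side and not as a matched comparison. The question put to the data was which family members changed at the RNA level with a given CKI during the LPS response. Kinase activity is not part of these data, and kinase names below are the CKIs' designated targets. Per the study, some CKIs were dosed for a different kinase, such as Apitolisib for JAK1, and most CKIs act on several kinases.

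In the intrinsic pathway of apoptosis, the effectors BAX and BAK oligomerize in the outer mitochondrial membrane and release cytochrome c, which starts caspase activation. BCL2, BCL-XL (encoded by *Bcl2l1*) and MCL1 hold the effectors in check, whereas the BH3-only proteins BIM (*Bcl2l11*), PUMA (*Bbc3*), NOXA (*Pmaip1*), BID and BAD relieve that restraint or engage the effectors directly. Several BH3-only genes are classical transcriptional targets of stress pathways and of FOXO factors, which AKT keeps out of the nucleus, and macrophages are known to raise survival genes of the family through NF-kB after TLR4 engagement.

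*Bcl2l11* and *Bbc3*, both known as FOXO target genes, and *Mcl1* rose with several of the PI3K/mTOR inhibitors described below, and their promoters are therefore shown. The windows run from 250 bases before to 50 bases after an annotated start (RefSeq, GRCm38.p6). Capitals mark matches to the FOXO element GTAAACA on either strand. The *Bcl2l11* window shown, at the gene's start, is chr2:128125788-128126087 on the plus strand. It holds 1 match, from base -227 to base -221 relative to the start. A further annotated window of *Bcl2l11*, chr2:128127325-128127624, holds none. *Bbc3* has 3 annotated windows, of which chr7:16310011-16310310 on the plus strand holds 1 match, from base -167 to base -161. The *Bbc3* window at the gene's start, chr7:16309333-16309632, holds none. The *Mcl1* window, chr3:95658471-95658770 on the plus strand, holds none.
Bcl2l11: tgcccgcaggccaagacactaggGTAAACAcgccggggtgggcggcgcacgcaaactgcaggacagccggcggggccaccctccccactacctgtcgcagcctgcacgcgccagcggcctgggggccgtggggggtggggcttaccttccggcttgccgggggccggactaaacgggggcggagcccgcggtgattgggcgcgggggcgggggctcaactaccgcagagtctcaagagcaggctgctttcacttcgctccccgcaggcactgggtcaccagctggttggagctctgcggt
Bbc3: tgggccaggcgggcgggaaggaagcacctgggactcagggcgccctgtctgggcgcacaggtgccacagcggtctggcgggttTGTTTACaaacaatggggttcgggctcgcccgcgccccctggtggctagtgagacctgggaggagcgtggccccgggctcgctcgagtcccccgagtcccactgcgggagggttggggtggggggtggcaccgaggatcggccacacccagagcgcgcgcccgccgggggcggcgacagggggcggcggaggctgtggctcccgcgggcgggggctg
Mcl1: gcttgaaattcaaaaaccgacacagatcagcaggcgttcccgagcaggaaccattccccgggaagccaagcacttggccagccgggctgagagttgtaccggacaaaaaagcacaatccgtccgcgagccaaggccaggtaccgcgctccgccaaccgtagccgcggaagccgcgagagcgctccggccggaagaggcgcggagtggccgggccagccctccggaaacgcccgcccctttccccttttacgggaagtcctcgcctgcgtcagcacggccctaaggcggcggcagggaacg
The element was present in 3.65% of all 32851 promoter windows of this length. Among the 15 windows of the 9 members searched, these were the only 2 with the element. The ATF4 element TGATGNAA occurred in 0 of the 15 and in 3.97% of all windows. The E-box CACGTG occurred in 2 of the 15, 1 of *Bax* and 1 of *Bbc3*, and in 7.15% of all windows. A match says only that the letters occur there.

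Under DMSO and LPS, the effector gene *Bax* (chr7:45461695-45466898 in mm10, minus strand) gave the highest level of the family per length. It had 2160 ± 452 normalized values per kb of cDNA (SD, n = 6), and none of its samples overlapped those of the next gene. *Bcl2l1* (chr2:152758732-152831728, minus) followed at 1090 ± 93.6 and *Bcl2l11* (chr2:128126038-128162547, plus) at 950.0 ± 71.1 per kb, and their samples overlapped. *Bid* (chr6:120893119-120916824, minus) stood at 469 ± 88.0 per kb. Below it, *Mcl1* (chr3:95658721-95663179, plus) at 221 ± 53.0 and *Bad* (chr19:6941861-6951905, plus) at 206 ± 13.4 per kb overlapped each other. *Bak1* (chr17:27019812-27028627, minus) had 118 ± 20.5 per kb, so the RNA of the second effector was far scarcer than that of *Bax*. The 3 scarcest were *Pmaip1* at 34.9 ± 8.71, *Bbc3* (chr7:16309583-16318334, plus) at 16.4 ± 3.92 and *Bcl2* itself (chr1:106538176-106714290, minus) at 3.83 ± 0.998 per kb. The namesake of the family thus had the lowest level, with 16 to 35 normalized values per DMSO sample, and its folds carry the widest errors. *Bad* overlaps *Gpr137* on the opposite strand by 590 bases, and since counting is not stated to use strand their reads cannot be told apart there.

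**Figure D1:**
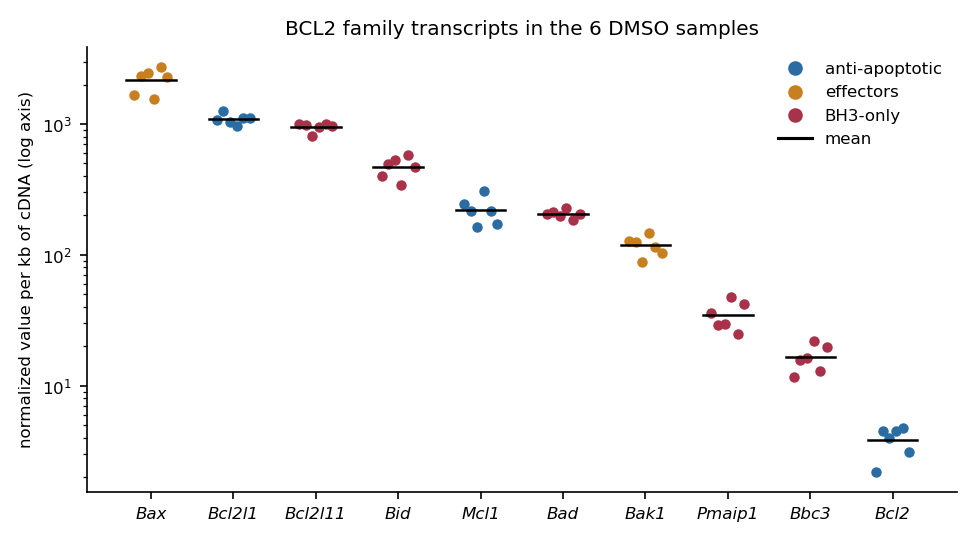
Normalized value per kb of cDNA (log axis) for each member in the 6 DMSO samples stimulated with LPS. Points are samples, coloured by role, and lines are means. *Bax* lies highest at 2160 and *Bcl2* lowest at 3.83, and only *Bcl2l1* with *Bcl2l11* and *Mcl1* with *Bad* overlap their neighbour in the order.

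The samples were comparable in depth as deposited, with totals of 9477340 to 12273349 normalized values, and no 2 samples held identical values. The macrophage markers (*Csf1r*, *Adgre1*, *Cd68*, *Itgam*, *Lyz2*, *Fcgr1*, *Mertk* and *Cd14*) were all detected, with summed levels of 99709 to 216444 in DMSO and 85635 to 250475 with the CKIs. The summed markers of T cells reached at most 31, of B cells 46 and of erythroid cells 6 in any sample. Neutrophil markers reached 526 in DMSO and 1444 with the CKIs, led by *S100a8*. Dendritic cell markers reached 92 and 162, and fibroblast markers 147 and 222. The part of the neutrophil, dendritic cell and fibroblast markers in the results was not tested. The share of mitochondrially encoded transcripts was 0.7595% to 1.945% in DMSO and 0.525% to 4.471% with the CKIs. In bulk RNA, fewer cells and less RNA per cell cannot be told apart.

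Across the 59 conditions, 8 of the 10 members differed by limma's moderated F test, against a background of 48.6% of all genes. The exceptions were *Bax* (adjusted p = 1) and *Bad* (adjusted p = 0.366). In the 580 comparisons of a member with a CKI against the shared 6 DMSO samples, 30 calls were higher and 7 lower at an adjusted p below 0.05. That is 5.17% higher and 1.21% lower, against 2.52% and 1.65% over all genes. The calls came from 14 CKIs, and in 31 of the 37 the CKI and DMSO samples did not overlap, as was the case for 67.3% of the 30807 calls over all genes. The 7 CKIs assigned here to the PI3K/mTOR class accounted for 19 of the 30 rises and none of the falls. Many genes outside the family were called with them too. The share of all genes called in either direction was 30.4% with BGT226, 25.7% with Omipalisib and 19.6% with AZD2014. It was 15.9% with Apitolisib, 13.1% with PF04691502, 0.228% with AZD8186 and 0.0236% with TG100115. In the other classes the members were called higher in 2.16% and lower in 1.37% of 510 comparisons. The shares of 2.52% and 1.65% over all genes include the PI3K/mTOR CKIs and so are not a matched background for these 510. The anti-apoptotic genes *Bcl2*, *Bcl2l1* and *Mcl1* had 10 rises and 2 falls in 174 comparisons. The BH3-only genes had 16 rises and 4 falls in 290, and the effectors 4 rises and 1 fall in 116. *Bax* had 0 calls, with no unadjusted p below 0.05 and log2 differences from -0.32 to 0.18. This fit and the F test hold no term for the replicate number, which marked *Bax* strongly as given below. With the replicate number as a block, *Bax* had 3 falls. The DMSO level of a gene enters all of its comparisons. Over the 58 CKIs the median log2 difference was 0.29 for *Bak1* and 0.38 for *Bbc3*, which were above 0 with 52 and 51 CKIs, and over all genes the CKIs' median differences centred on 0.08. The part of the DMSO samples in these medians was not tested.

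**Figure D2:**
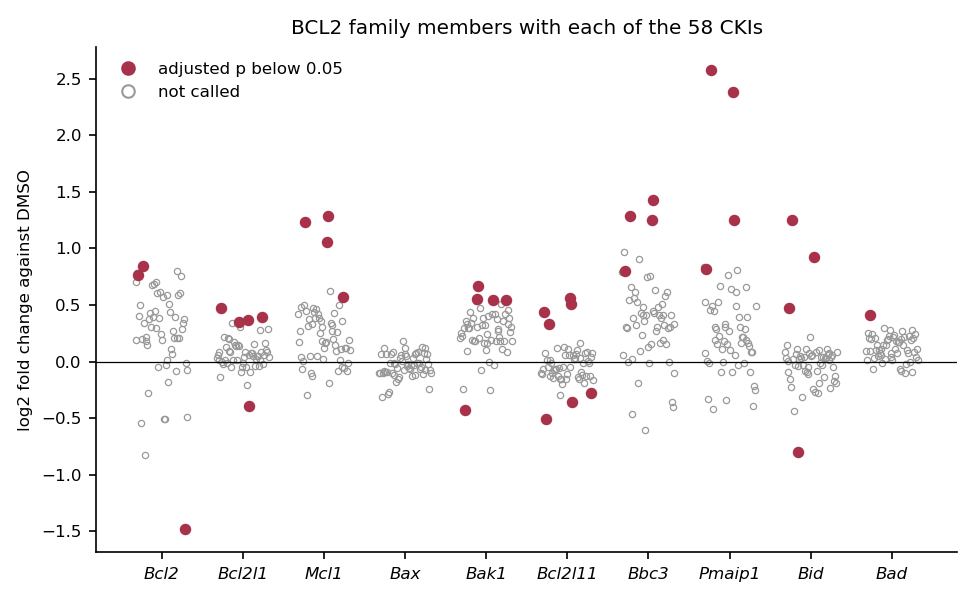
Log2 fold change of each member against DMSO with each of the 58 CKIs, 1 point per CKI in alphabetical order within a gene. Filled points passed an adjusted p of 0.05. *Pmaip1* reached 2.58, whereas all 58 points of *Bax* lie between -0.32 and 0.18.

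*Pmaip1* (chr18:66458604-66465558, plus), whose product NOXA binds MCL1, showed the largest rises. Its 6 DMSO samples ran from 66 to 127 with a median of 87.5 normalized values. With BGT226, a PI3K/mTOR inhibitor, the samples averaged 558 ± 149 (SD, n = 3), of which replicates 1 and 2 read 588 and 690 and replicate 3 was the lowest. With Omipalisib, which targets the same kinases, they read 551, 529 and 369, so every sample of both lay far above the DMSO range. These are rises of 5.96-fold (log2 2.58 ± 0.28 SE, adjusted p = 9.04e-14) and 5.22-fold (log2 2.38 ± 0.28, adjusted p = 5.60e-12). PF04691502, also directed at PI3K and mTOR, gave 202, 241 and 207 (log2 1.25 ± 0.28, adjusted p = 9.51e-04). AZD2014, directed at mTOR, gave 144, 178 and 160 (log2 0.82 ± 0.28, adjusted p = 0.0263). The 2 latter CKIs also left no overlap with DMSO. A leave-out fit dropped either 1 DMSO sample or 1 replicate number from all 58 CKIs at once. Below, a call lost without a CKI's replicate was lost in the fit without that replicate of every CKI. The AZD2014 call was lost in 5 of the 9 leave-out fits, with adjusted p of 0.0507 to 0.0939. Those 5 were without each of the 3 CKI replicate numbers and without replicate 2 of DMSO set 1 or of set 2.

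*Mcl1*, the short-lived anti-apoptotic protein that NOXA binds, rose with 3 of the same CKIs. DMSO ran from 572 to 1079 with a median of 754 normalized values. PF04691502 gave 2116, 1561 and 1857, BGT226 gave 2120, 1900 and 1381, and Omipalisib gave 1597, 1821 and 1326. No sample of the 3 fell into the DMSO range, and the rises were 2.43-fold, 2.35-fold and 2.08-fold. Their log2 differences were 1.28, 1.24 and 1.06 (SE 0.19 each) with adjusted p of 1.20e-07, 3.17e-08 and 3.33e-06. With AZD2014, *Mcl1* read 1172, 831 and 1202, which overlapped DMSO and did not pass.

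*Bcl2l11* was abundant and varied little between replicates. DMSO ran from 5795 to 7159 with a median of 6915 normalized values, of which set 1 replicate 3 was low and the other 5 began at 6770. It read 10226, 9508 and 10293 with Omipalisib, 9352, 9178 and 10421 with PF04691502, 8892, 9019 and 9661 with AZD2014, and 7937, 8405 and 9318 with BGT226. All 12 samples exceeded the highest DMSO sample, by a modest fold. The log2 differences were 0.56 (adjusted p = 8.44e-09), 0.51 (9.37e-07), 0.44 (6.82e-06) and 0.33 (4.96e-04), each with an SE of 0.08. Scaling again by the median of ratios moved the median of all genes by -0.20 with BGT226 and by over 0.1 with 18 CKIs in all, always downward. On that scale the *Bcl2l11* difference with BGT226 fell to 0.13 (adjusted p = 0.317), whereas those with Omipalisib (0.46), PF04691502 (0.41) and AZD2014 (0.47) passed. The sign of all 37 called differences held on the rescaled values, and 29 of them remained called.

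*Bbc3* was scarce, with 30 to 56 normalized values in DMSO and a median of 41. It read 117, 140 and 86 with PF04691502, 93, 112 and 100 with BGT226, and 88, 148 and 74 with Omipalisib. None of these overlapped DMSO, and the rises were 2.69-fold, 2.44-fold and 2.38-fold (log2 1.43, 1.28 and 1.25, SE 0.28 each). Their adjusted p were 9.56e-05, 9.72e-05 and 2.43e-04. AZD2014 gave 44, 103 and 83, of which the lowest lay within DMSO (log2 0.80 ± 0.28, adjusted p = 0.0281). That call was lost without replicate 2 (adjusted p = 0.194) or 3 (0.145) of AZD2014 and without DMSO set 1 replicate 1 (0.0661) or set 2 replicate 2 (0.0685).

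*Bid*, whose product links death receptors to the mitochondrion after cleavage by caspase-8, rose with only 2 of the 7 inhibitors of this class. DMSO ran from 645 to 1099 with a median of 912 normalized values. BGT226 gave 1899, 1849 and 2579 and Omipalisib 1542, 1553 and 1917, which did not overlap DMSO. The log2 differences were 1.25 ± 0.16 SE (adjusted p = 5.48e-11) and 0.92 ± 0.16 (1.29e-06). PF04691502 read 606, 833 and 755 and AZD2014 729, 904 and 847, at or below the middle of the DMSO samples. *Bcl2* rose with BGT226, at 56, 48 and 46 (log2 0.85 ± 0.29, adjusted p = 0.0173), and with AZD2014, at 46, 40 and 56 (0.76 ± 0.29, adjusted p = 0.0495). DMSO ran from 16 to 35 with a median of 31, so neither overlapped it. The BGT226 call was lost without its replicate 1 (adjusted p = 0.0668) or 2 (0.0544) or DMSO set 1 replicate 1 (0.0597), and on the rescaled values (0.0582). The AZD2014 call was lost in 6 of the 9 leave-out fits (0.0504 to 0.23). These were the fits without each of its own 3 replicates, DMSO set 1 replicates 1 and 3 and set 2 replicate 3.

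**Figure D3:**
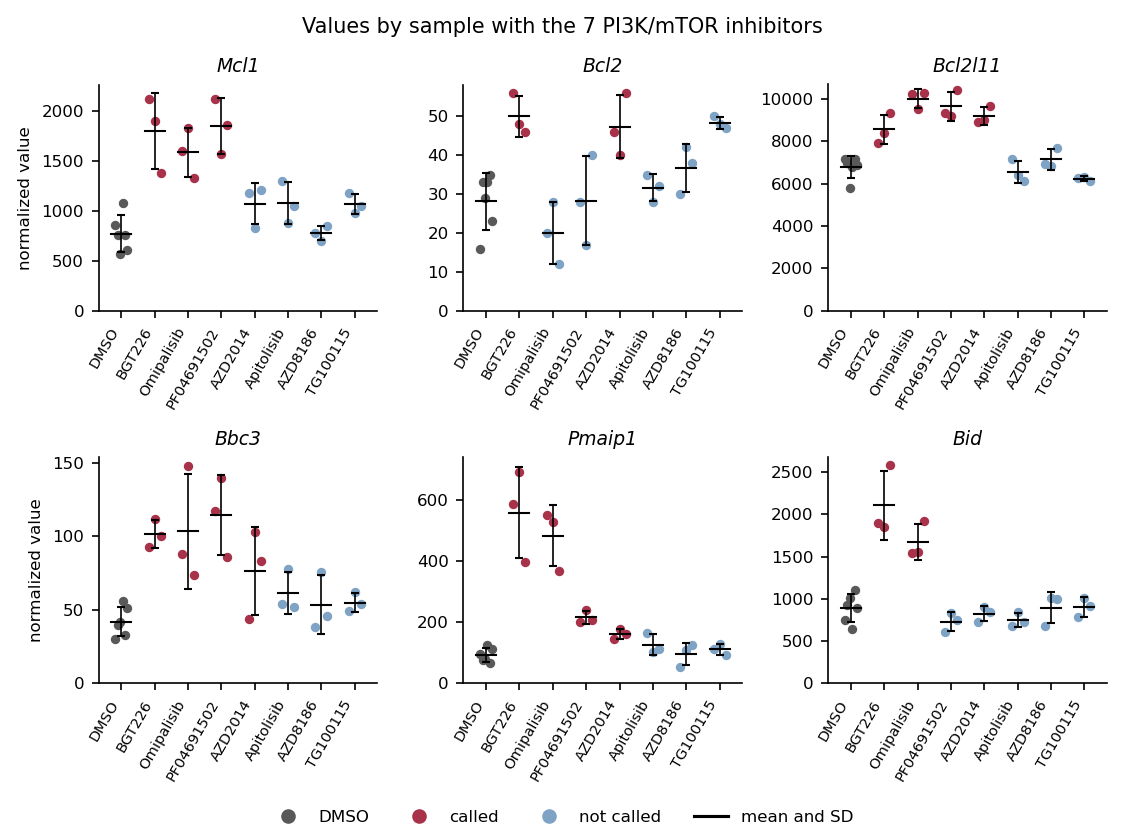
Normalized values of 6 members with DMSO (6 samples) and the 7 PI3K/mTOR inhibitors (3 samples each). Points are samples, lines and bars are means and SD, and red marks an adjusted p below 0.05. *Bcl2l11* lies above DMSO in all samples of 4 inhibitors, whereas *Bid* does so in 2.

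The members called made up 6 of 10 with BGT226, where 30.4% of all genes were called, and 5 of 10 with Omipalisib, where 25.7% were. They were 4 of 10 with AZD2014 (19.6% of genes) and 4 of 10 with PF04691502 (13.1%). The mitochondrial share averaged 2.69% with PF04691502, a mean above the highest DMSO sample, although its lowest replicate (1.71%) lay within the DMSO range, against 1.57%, 1.81% and 1.16% with BGT226, Omipalisib and AZD2014. With this share and the replicate block in the fit, the 4 differences with PF04691502 were 1.01 (*Mcl1*), 0.54 (*Bcl2l11*), 1.45 (*Bbc3*) and 1.31 (*Pmaip1*), with adjusted p of at most 2.81e-04. Apitolisib called 15.9% of all genes but none of the 10 members. With it, *Bcl2l11* read 7148, 6403 and 6123 (log2 -0.05 ± 0.08) and *Pmaip1* 166, 102 and 113 (0.45 ± 0.28, adjusted p = 0.248). AZD8186 and TG100115 had no member called either. *Pmaip1* differed by 0.005 ± 0.28 with the former and 0.29 ± 0.28 with the latter, and *Bcl2l11* by 0.08 ± 0.08 and -0.12 ± 0.08. For Apitolisib and TG100115 the same-numbered replicates deviated together with DMSO, and a fit with the replicate number as a block is therefore given too. With that block, *Mcl1* rose with Apitolisib (1299, 881 and 1048, log2 0.50, adjusted p = 0.0162) and with TG100115 (1176, 975 and 1050, 0.50, adjusted p = 0.0371). *Bid* fell with Apitolisib (684, 845 and 729, log2 -0.22, adjusted p = 0.0266), and *Bak1* (340, 327 and 340, 0.51, adjusted p = 0.0342) and *Bcl2* (50, 48 and 47, 0.80, adjusted p = 0.0431) rose with TG100115. The mitochondrial share averaged 2.93% with Apitolisib and 2.62% with TG100115, above the highest DMSO sample, and none of these 5 calls held once it entered the fit with the block (adjusted p = 0.346 to 0.493). The AKT inhibitors MK2206 and GSK2110183 changed no member in either direction at the threshold, with *Bcl2l11* at -0.15 ± 0.08 and -0.06 ± 0.08 and *Mcl1* at 0.42 ± 0.19 and 0.33 ± 0.19.

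**Figure D4:**
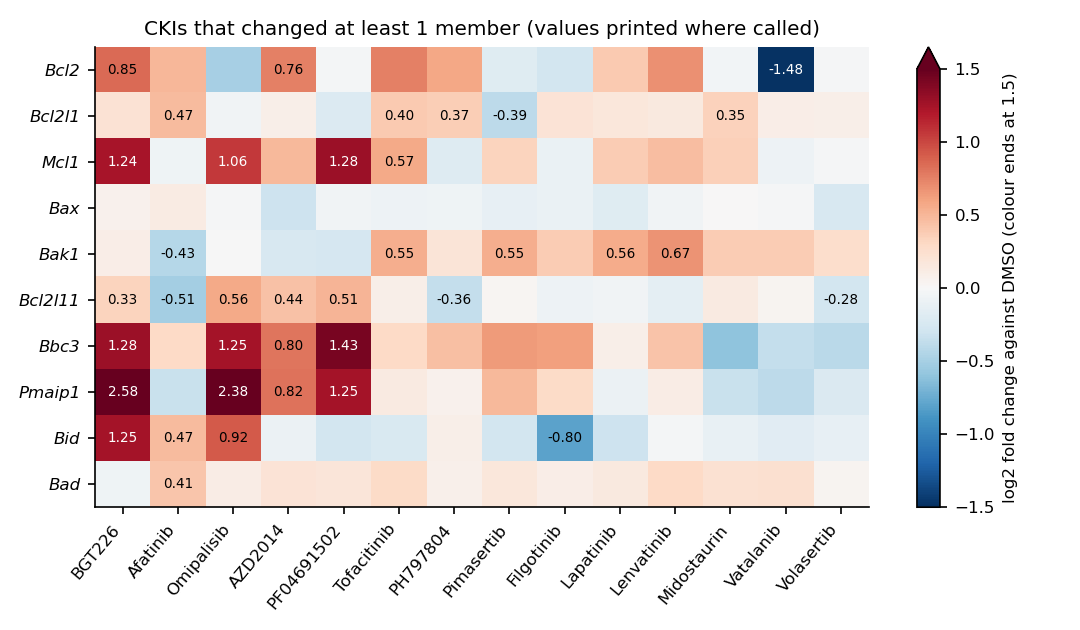
Log2 fold change against DMSO for the 10 members (rows) with the 14 CKIs that changed at least 1 of them (columns). Values are printed where the adjusted p was below 0.05, and colour ends at 1.5. The BH3-only genes *Bcl2l11*, *Bbc3* and *Pmaip1* are red with BGT226, Omipalisib, AZD2014 and PF04691502, and *Bcl2l11* is blue with Afatinib, PH797804 and Volasertib.

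Afatinib, an irreversible inhibitor of the ERBB receptors, changed 5 of the 10 members (21.9% of all genes). *Bcl2l11* fell to 4667, 4298 and 5402, all below the lowest DMSO sample (log2 -0.51 ± 0.08 SE, adjusted p = 9.71e-07). *Bcl2l1* rose to 4641, 5030 and 5088, all above the DMSO range of 3164 to 4081 with its median of 3553 (log2 0.47 ± 0.11, adjusted p = 4.27e-04). Both calls were made in all 9 leave-out fits. A pro-apoptotic gene was lower and an anti-apoptotic gene higher, but the pro-apoptotic *Bad* and *Bid* were called higher too. *Bad* read 420, 486 and 353 against 283 to 345 in DMSO with a median of 312 (log2 0.41 ± 0.13, adjusted p = 0.0128). *Bid* read 1070, 1351 and 1234, overlapping DMSO (log2 0.47 ± 0.16, adjusted p = 0.0219), and *Bak1* read 165, 132 and 244 against 178 to 297 in DMSO with a median of 243 (-0.43 ± 0.16, adjusted p = 0.0435). These 3 calls were lost in some of the leave-out fits. *Bad* was lost without Afatinib replicate 1 (adjusted p = 0.0726) or 2 (0.228). *Bid* was lost without Afatinib replicate 2 (0.232) or 3 (0.113) or DMSO set 2 replicate 1 (0.067). *Bak1* was lost without Afatinib replicate 1 (0.234) or 2 (0.467), DMSO set 1 replicate 1 (0.0709) or 2 (0.0739), or set 2 replicate 1 (0.0955) or 2 (0.0673). With the other 5 ERBB inhibitors, AC480, Lapatinib, Mubritinib, Neratinib and Poziotinib, *Bcl2l11* was not called and differed by -0.15 to 0.11.

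*Bcl2l11* also fell with PH797804, an inhibitor of the stress kinase p38, to 5720, 5721 and 4470, all below DMSO (log2 -0.36 ± 0.08, adjusted p = 0.00269). Only 1.98% of all genes were called with this CKI. The call was lost without its replicate 3 (adjusted p = 0.182). *Bcl2l1* rose with it, at 4432, 4712 and 4572, above every DMSO sample (0.37 ± 0.11, adjusted p = 0.0408). This call was lost in 8 of the 9 leave-out fits (0.0504 to 0.25), all but that without DMSO set 1 replicate 2. It was lost on the rescaled values too (0.108). The other 3 p38 inhibitors gave *Bcl2l11* differences of -0.29 ± 0.08 (Losmapimod, adjusted p = 0.196), -0.19 ± 0.08 (Talmapimod) and -0.01 ± 0.08 (VX702). With Volasertib, an inhibitor of the mitotic kinase PLK1, *Bcl2l11* read 5420, 6205 and 5182, overlapping DMSO (-0.28 ± 0.08, adjusted p = 0.0493, with 1.74% of genes called). That call was lost in 6 of the 9 leave-out fits (0.0739 to 0.428) and on the rescaled values (0.105). The 6 were those without its replicates 1 and 3, DMSO set 1 replicates 1 and 2 and set 2 replicates 2 and 3.

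Pimasertib, a MEK inhibitor, lowered *Bcl2l1* and raised *Bak1* (21.7% of all genes called). *Bcl2l1* read 2409, 3092 and 2664, all below DMSO (log2 -0.39 ± 0.11, adjusted p = 0.00717, lost without its replicate 1 at 0.0702). *Bak1* read 302, 414 and 325, all above DMSO (0.55 ± 0.16, adjusted p = 0.0122, lost without its replicate 2 at 0.0933). The same-numbered replicates deviated together with DMSO here too, and with the replicate block *Bbc3* rose (48, 58 and 95, log2 0.63, adjusted p = 0.0389) and *Bid* fell (616, 831 and 737, -0.28, adjusted p = 0.00536). The mitochondrial share averaged 3.66%, and with it in that fit the adjusted p were 0.219 and 0.394. ERK is known to mark BIM protein for degradation. The RNA of *Bcl2l11* was not called with any of the 6 RAF, MEK and ERK inhibitors and differed by -0.14 to 0.16.

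Without the replicate block *Bak1* rose with 4 CKIs, none directed at PI3K or mTOR (TG100115 was called only with the block, as given above). Besides Pimasertib these were Lenvatinib, a VEGFR inhibitor, at 353, 358 and 417 (log2 0.67 ± 0.16 SE, adjusted p = 0.0215, with 12.2% of genes called), and the ERBB inhibitor Lapatinib at 327, 353 and 359 (0.56 ± 0.16, adjusted p = 0.0116, with 23.3% called). The JAK inhibitor Tofacitinib gave 315, 379 and 340 (0.55 ± 0.16, adjusted p = 0.0268, with 9.88% called). In all 4 no sample overlapped DMSO. The mean mitochondrial share was above the highest DMSO sample with all 4, at 3.66% with Pimasertib, 2.77% with Lenvatinib, 2.76% with Lapatinib and 2.64% with Tofacitinib. Replicate 3 of Lapatinib (1.918%) and of Tofacitinib (1.352%) lay within the DMSO range. With the other CKIs at a mean share of 2.6% or more, *Bak1* was not called without the block. It averaged 205 with PF04691502 (2.69%), below the DMSO mean of 238. It averaged 325.7 with Pacritinib (2.83%), 307.3 with Apitolisib (2.93%), 335.7 with TG100115 (2.62%) and 307.3 with SGI1776 (2.6%). When the mitochondrial share and the replicate block entered the fit together, the *Bak1* differences with the 4 called CKIs were 0.43 to 0.59. Their adjusted p were 0.227 with Pimasertib, 0.125 with Lenvatinib, 0.0704 with Lapatinib and 0.138 with Tofacitinib. The call with Lapatinib was lost without its replicate 1 (adjusted p = 0.0648). That with Lenvatinib was lost without its replicate 1 (0.0759) or 3 (0.122) or DMSO set 2 replicate 2 (0.0674). That with Tofacitinib was lost without its replicate 1 (0.123) or 2 (0.157), DMSO set 1 replicate 3 (0.0723) or set 2 replicate 2 (0.063), and on the rescaled values (0.0951). With the replicate block, which the correlations allow for both, *Mcl1* rose with Lapatinib (1035, 1014 and 907, log2 0.39, adjusted p = 0.0483) and with Lenvatinib (983, 1141 and 1004, 0.47, adjusted p = 0.0258), and *Bid* fell with Lapatinib (614, 801 and 717, -0.31, adjusted p = 0.00224). With the mitochondrial share in that fit as well, the adjusted p were 0.677, 0.492 and 0.061.

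Tofacitinib changed 2 anti-apoptotic genes as well. *Bcl2l1* read 4092, 5164 and 4811, just clear of DMSO (log2 0.40 ± 0.11, adjusted p = 0.0173), and the call was lost without its replicate 2 (0.184) and on the rescaled values (0.138). *Mcl1* read 1306, 1221 and 873, overlapping DMSO (0.57 ± 0.19, adjusted p = 0.0416). The *Mcl1* call was lost in 6 of the 9 leave-out fits (0.0555 to 0.233). The 6 were those without its replicates 1 and 2, DMSO set 1 replicates 2 and 3 and set 2 replicates 2 and 3. It was also lost on the rescaled values (0.133) and with the block and the mitochondrial share in the fit (0.31, adjusted p = 0.247). Filgotinib, another JAK inhibitor, lowered *Bid* to 430, 537 and 549, all below DMSO (-0.80 ± 0.16, adjusted p = 4.79e-05, with 20.7% of genes called). This was the largest fall of *Bid* in the data and was called in all 9 leave-out fits. *Bid* was not called with the other 5 JAK inhibitors, where it differed by -0.43 to -0.01. For BMS911543 the replicate block applied, and with it *Bid* (572, 697 and 684, -0.43, adjusted p = 7.03e-06), *Bcl2* (20, 11 and 15, -0.83, adjusted p = 0.0277) and *Bax* (1285, 1617 and 1675, -0.28, adjusted p = 0.0195) fell.

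Midostaurin, a multi-kinase inhibitor, raised *Bcl2l1* to 4516, 4194 and 4861, above every DMSO sample (log2 0.35 ± 0.11, adjusted p = 0.0328, with 4.56% of genes called). The call was lost in 5 of the 9 leave-out fits (0.0562 to 0.256) and on the rescaled values (0.177). The 5 were those without each of its own 3 replicates, DMSO set 1 replicate 3 and set 2 replicate 1. Vatalanib, a VEGFR inhibitor, called only 12 genes, or 0.0944%, and *Bcl2* was among them. It read 2, 22 and 14, of which 1 overlapped DMSO (-1.48 ± 0.29, adjusted p = 0.00476). With replicate 1 of every CKI left out, the sample at 2 among them, the difference was -0.61 (adjusted p = 0.825) and the call was lost. With the replicate block, where it applied, *Bcl2l1* rose with the PLK1 inhibitor GSK461364 (4156, 4477 and 4880, 0.34, adjusted p = 0.0433) and *Bbc3* with the IKK inhibitor IMD0354 (67, 98 and 72, 0.91, adjusted p = 0.0466). The mitochondrial share averaged 2.38% and 1.81%, and with it in that fit the adjusted p were 0.217 and 0.053.

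**Figure D5:**
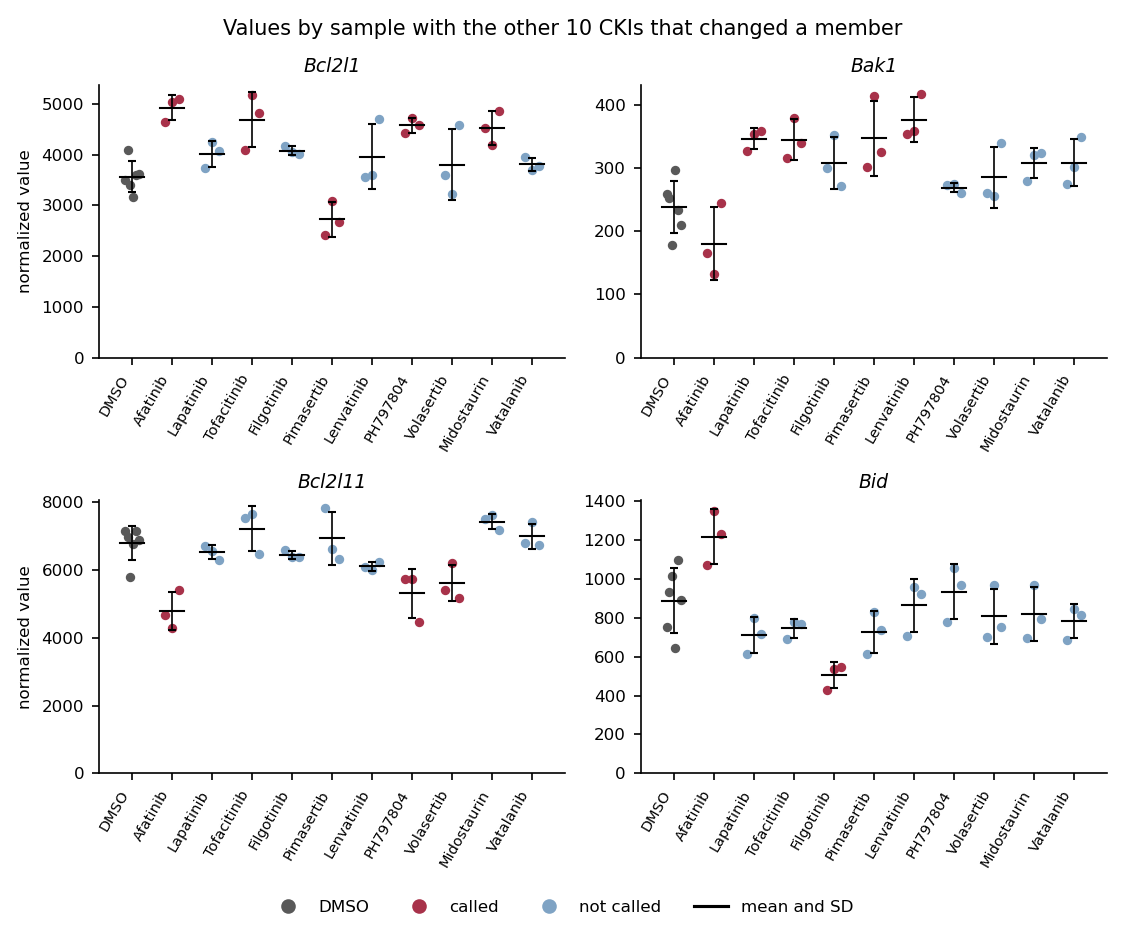
Normalized values of *Bcl2l1*, *Bak1*, *Bcl2l11* and *Bid* with DMSO (6 samples) and the 10 other CKIs that changed a member (3 samples each). Points are samples, lines and bars are means and SD, and red marks an adjusted p below 0.05. With Afatinib all *Bcl2l1* samples lie above 4081 and all *Bcl2l11* samples below 5795, the ends of the DMSO range.

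The replicate number left a trace in most members, strongest in *Bax* and *Bid*. Over the 58 CKIs and the 2 DMSO sets, *Bax* was lowest in replicate 1 in 60 of 60 sets of 3, and *Bid* in 57 of 60. *Mcl1* was lowest in replicate 3 in 39 of 60, and *Bcl2l1* lowest in replicate 1 in 39 of 60. *Bcl2l11* and *Pmaip1* were lowest in replicate 3 in 34 and 33, and *Bcl2* in replicate 1 in 32. *Bbc3* was highest in replicate 2 in 38. *Bak1* showed no such order, with the lowest value in replicates 1, 2 and 3 in 19, 20 and 21 sets. The source of the order was not tested. Within the 34 CKIs whose same-numbered replicates deviated together with DMSO, the block raised the calls over the members from 7 to 22 and lost none. Of the 15 calls gained, 11 came from CKIs with a mean mitochondrial share above the highest DMSO sample, and only the 3 with BMS911543 held once that share entered the fit with the block. The share of all tests called with the block rose too, to 4.6% higher and 3.08% lower over the 58 CKIs. Over all 58, with the block, *Bid* had 7 falls in place of 1, *Bax* 3 in place of 0 and *Mcl1* 10 rises in place of 4.

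The members varied together only in part. Over the 59 group means of log2 values, *Bbc3* and *Pmaip1* had a Pearson r of 0.776, *Mcl1* and *Pmaip1* 0.735, *Pmaip1* and *Bid* 0.639 and *Mcl1* and *Bbc3* 0.62. Without the 7 PI3K/mTOR groups, over 52 means, these were 0.718, 0.422, 0.252 and 0.33. The group means share the table's scaling, and these values are descriptions only. The genes most like *Pmaip1* over the 59 means were *Rabgef1* (r = 0.9), *Klf6* (0.899) and *Bhlhe40* (0.885). Those most like *Mcl1* were *Hmga2* (0.86), *Hbp1* (0.847) and *Nr2c2* (0.847), and those most like *Bid* were *Actr1b* (0.921), *St6galnac4* (0.913) and *Ifrd1* (0.911). *Bak1* was most like *Rpgrip1* (0.89), *Gm38733* (0.878) and *Slc39a1* (0.84), and *Bcl2l11* most like *Nr4a2* (0.782), *Cnppd1* (0.758) and *Csf2rb2* (0.75). For *Bbc3* the gene most like it among 12713 was its fellow member *Pmaip1*, followed by *Zbtb10* (0.753) and *Fnip1* (0.75). *Bcl2l1* was most like *Surf6* (0.753), *Rrp7a* (0.73) and *Mak16* (0.716), of which RRP7A and MAK16 act in ribosome assembly, and *Bcl2* most like *Gm4798* (0.728), *Etv5* (0.719) and *Dmwd* (0.71).

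Of 41 further genes of the apoptosis machinery, 36 passed the filter. In their 2088 comparisons 40 were called higher (1.92%) and 25 lower (1.2%), against the same 2.52% and 1.65% of all genes. This balance turned on the rescaled values, with 24 called higher and 47 lower, and over all genes 1.65% higher and 2.4% lower. Among 10 other BCL2-related genes, each compared with 58 CKIs, there were 16 rises and 5 falls. *Bnip3l*, which encodes the mitophagy receptor NIX, rose by 0.72 ± 0.17 with PF04691502 (adjusted p = 0.0013), 0.63 ± 0.17 with Omipalisib (0.00249), 0.50 ± 0.17 with AZD2014 (0.0213) and 0.48 ± 0.17 with BGT226 (0.0195). *Bmf*, a further BH3-only gene, rose with Midostaurin from 28.33 ± 5.354 (SD, n = 6) to 102 ± 13.08 (n = 3), a log2 difference of 1.83 ± 0.30 SE (adjusted p = 3.30e-06). It also rose with Pimasertib (0.92) and AZD2014 (0.90) and fell with Mubritinib (-1.39), Afatinib (-0.90) and Omipalisib (-0.78). *Bcl2l12* rose with Lenvatinib (0.82), Pimasertib (0.76), Apitolisib (0.67) and Lapatinib (0.67), although it did not pass the F test across the conditions (adjusted p = 0.267). The mean mitochondrial share was above the highest DMSO sample with all 4, and none of the 4 calls held with this share and the block in the fit (adjusted p = 0.17 to 0.372). The reads of *Bcl2a1a*, *Bcl2a1b* and *Bcl2a1d* come from near-identical copies and are uncertain, with 1 rise each.

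Downstream of the mitochondrion, the caspase gene *Casp6* rose with 5 CKIs, most with Midostaurin (log2 0.60 ± 0.13 SE, adjusted p = 3.87e-04). With the other 4 (Apitolisib, Lenvatinib, PF04691502 and Pimasertib) the mean mitochondrial share was above the highest DMSO sample, and only the call with Midostaurin held with this share and the block in the fit (adjusted p = 3.76e-05). The nuclease genes *Dffa* and *Dffb* were not called with any CKI. *Apaf1*, the scaffold of the apoptosome, fell with Afatinib (-0.97 ± 0.23, adjusted p = 6.70e-04), AZD2014 (-0.86 ± 0.23, 0.00232) and Filgotinib (-0.72 ± 0.23, 0.0143). Each gene of these lists was compared with 58 CKIs. The 8 genes of the apoptosome and of released mitochondrial proteins had 3 rises and 5 falls. The 8 inhibitor of apoptosis genes had 11 rises and 7 falls. In the death receptor arm, 5 genes had 5 rises and 3 falls over the 58 CKIs. Among them, *Ripk1* rose with BGT226 (0.79 ± 0.20, adjusted p = 9.35e-04) and fell with AZD2014 (-0.88 ± 0.20, 3.28e-04), BMS911543 (-0.84 ± 0.20, 0.00101) and Filgotinib (-0.66 ± 0.20, 0.00997).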

How the data were processed

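PolyA RNA of 180 BMDM samples (58 CKIs with 3 samples each, 6 DMSO samples) was sequenced after SMART-seq2 preparation. Per the study's methods and the submitters' processing notes, the authors aligned reads with TopHat2 2.1.1 to mm10, kept 1 alignment per read, removed reads in blacklisted regions with bedtools 2.29.2, counted reads per gene with R/Bioconductor packages, and normalized the samples on invariant genes (DESeq2 in R 3.6.2 served for their own differential tests, with its normalization switched off). The deposited values are these normalized read counts rounded to whole numbers, treated here as a score and not as raw counts, so no count model was run and no counting interval is given. Groups followed the sample labels, and the replicates were independent biological replicates per the methods. Kinase classes were assigned from the CKIs' designated targets.

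Genes with a mean of at least 10 were kept, values were taken as log2(value + 1), which understates changes of low genes, and all 59 conditions were fitted together with limma 3.58.1 (R 4.3.3; empirical Bayes with a variance trend, two-sided). Each CKI was tested against the 6 DMSO samples, with Benjamini-Hochberg adjustment over 12714 genes within a CKI and a threshold of 0.05. SEs are limma's moderated ones. The fit was tested on simulated data. For pairing, each sample's deviation from its group mean was correlated with that of the same-numbered DMSO samples: all 3 correlations exceeded 0.1 in 34 of 58 CKIs, and the lowest between the 2 DMSO sets was 0.2373. The block with the replicate number was used where they did. The members, gene lists and tests were chosen with earlier results of these data known. All members, the CKIs that changed at least 1, the up to 4 other apoptosis genes with the most calls in each direction and the 3 genes most like each member that differed by the F test were named. Other settings are listed in the closing section. The labels do not tie CKIs to a DMSO set. Promoters came from RefSeq (GRCm38.p6), with 9 members searched. Some genes of the apoptosis lists are not reported here.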

Additional observations from a re-analysis of the deposited data

Results flagged for a closer look

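*Bcl2l11* had 1 low value among the 6 DMSO samples. Set 1 replicate 3 read 5795 normalized values, whereas the other 5 ran from 6770 to 7159, and its gap to the nearest sample made up 0.715 of the whole range, above Dixon's critical value for 6 samples. Chance marks about 1 in 20 such groups, and 10 were examined. No explanation was tested.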

How the results depend on the processing

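Over 21 alternative settings, none of the 37 called differences changed sign, 15 passed under every setting that could be run and 22 missed the threshold under at least 1. The 15 were those of *Pmaip1*, *Mcl1* and *Bbc3* with BGT226, Omipalisib and PF04691502, *Bcl2l11* with Omipalisib, PF04691502 and Afatinib, and *Bid* with BGT226, Omipalisib and Filgotinib. A pseudocount of 0.5 or 10, no filter, a filter at 50 and no variance trend moved no count of calls by over 1.5 times. *Bcl2* was not tested under the filter at 50. The members' 30 rises and 7 falls became 21 and 3 with DMSO set 1 alone, 18 and 4 with set 2 alone, 18 and 2 when only the groups compared were fitted, 22 and 3 with a log2 fold change of at least 0.5 required as well, and 25 and 10 after scaling again by the median of ratios (81.1% against 71.4% of calls higher). Over all genes the share of tests called moved too, from 4.18% to 2.03%, 2.42%, 1.67%, 3.32% and 4.05% in that order. The replicate block gave 43 rises and 17 falls, and 26 and 11 once the share of mitochondrial transcripts entered that fit too. Over all genes 7.68% and 4.2% of tests were called in these 2 fits. The block lost none of the 37 calls, and it applied to only 5 of the 14 CKIs that changed a member. The fits without 1 DMSO sample or 1 replicate number of every CKI gave 20 to 40 rises and 4 to 8 falls. The most came without DMSO set 2 replicate 1 (40 and 8). Over all genes these fits called 1.89% to 6.09% of tests, also the most without DMSO set 2 replicate 1.

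The other apoptosis genes' 40 rises and 25 falls became 24 and 47 after rescaling, 23 and 11 with DMSO set 1 alone, 18 rises with set 2 alone, and 16 and 6 when only the groups compared were fitted. With the block they were 84 and 51, with block and mitochondrial share 42 falls, and with the log2 limit 16 falls. The leave-out fits gave 17 to 74 rises and 11 to 39 falls. Why these counts moved was not tested, apart from the fewer samples in the smaller fits. The deposited values carry no raw depth, which limits what can be said of scarce members such as *Bcl2* and *Bbc3*.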
